A study of Mus musculus with 4 samples.

Results

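The wide peaks of Deaf1 were defined as those of 1500 bp or more in either of 2 ChIP-seq peak lists, on chromosomes 1 to 19 and X, with overlapping ones merged into a region. The rule found 979 wide peaks in replicate 1 and 297 in replicate 2, which is 1.49% and 1.12% of the peaks in each list. They merged into 981 regions, out of 67118 merged regions of all peaks and 22880 that held peaks of both replicates (shared regions). The regions were thus chosen by their width, which comes from the same signal as fold enrichment and p, so all values at these regions are descriptions and none was tested. Of the shared regions 4.29% held a wide peak, and the other 21899 serve as the narrower shared regions below.

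Deaf1 was immunoprecipitated from formaldehyde-crosslinked C2C12 cells, an immortalised mouse myoblast line that fuses into myotubes, with chromatin cut by enzymatic digestion. The sample labels name the cells myocytes and the series text names differentiated myoblasts; no genotype change, agent or time point is given for any sample. The series holds 2 Deaf1 ChIP samples and 2 input samples, each numbered 1 and 2, and only the ChIP samples contributed peaks here. The labels do not say whether the replicates were separate cultures, so the spread between them may be technical. Replicate 1 had 65582 peaks and replicate 2 had 26482 on these chromosomes; read depth is unknown from the lists, and the lowest background recovered from them was 2.13 fragments in replicate 1 and 1.64 in replicate 2.

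Deaf1 is a transcription factor whose SAND domain contacts DNA at short elements with a TTCG core, often in pairs, and whose MYND domain binds other proteins. It has been studied in immune tolerance, in brain development, where mutations cause intellectual disability, and in muscle, where it has been linked to autophagy genes. A peak caller draws a peak as far as the signal stays above its threshold, so a single bound site in a ChIP-seq library usually gives a peak not much longer than the sequenced fragments, and a wide peak is a stretch over which enrichment did not drop below the threshold. Many mammalian promoters lie in CpG islands, GC-rich stretches in which CpG is not depleted and which often reach past the transcription start on both sides.

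To show the DNA that lies in the wide regions, the 250 bases upstream of the start site are given for the 6 regions that combined a high fold in both replicates with a start site in the RefSeq promoter table, followed by Cebpb, which had none of the motif. The bases are RefSeq's, build GRCm38.p6, read 5′ to 3′ on the gene's strand. Capitals mark TTCG, or CGAA where the motif stands on the other strand; both hold a CpG, and TTCGAA would count as both.
Adgrl1 (chr8:83899848-83900097, plus strand): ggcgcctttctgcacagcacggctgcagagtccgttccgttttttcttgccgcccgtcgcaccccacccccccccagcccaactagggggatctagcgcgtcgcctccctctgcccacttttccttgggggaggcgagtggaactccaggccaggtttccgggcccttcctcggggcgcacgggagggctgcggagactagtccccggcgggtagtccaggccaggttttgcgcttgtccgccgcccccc
Foxp4 (chr17:47924633-47924882, minus strand): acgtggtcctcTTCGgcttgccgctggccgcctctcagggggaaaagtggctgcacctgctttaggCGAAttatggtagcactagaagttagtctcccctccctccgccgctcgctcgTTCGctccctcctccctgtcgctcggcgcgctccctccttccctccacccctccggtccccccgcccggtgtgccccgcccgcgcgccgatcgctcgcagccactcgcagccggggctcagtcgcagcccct
Tnpo2 (chr8:85036936-85037185, plus strand): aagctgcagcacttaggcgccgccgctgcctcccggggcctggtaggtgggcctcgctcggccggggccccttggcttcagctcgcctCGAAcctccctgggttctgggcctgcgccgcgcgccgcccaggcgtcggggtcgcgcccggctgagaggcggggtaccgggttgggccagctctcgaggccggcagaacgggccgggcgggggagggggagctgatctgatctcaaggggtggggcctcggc
Zfp777 (chr6:48047795-48048044, minus strand): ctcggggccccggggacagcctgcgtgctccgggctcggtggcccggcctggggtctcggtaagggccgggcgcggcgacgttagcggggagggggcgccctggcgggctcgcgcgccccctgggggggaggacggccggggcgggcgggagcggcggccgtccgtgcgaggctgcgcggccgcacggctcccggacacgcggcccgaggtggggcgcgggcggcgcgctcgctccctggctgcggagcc
Clock (chr5:76304549-76304798, minus strand): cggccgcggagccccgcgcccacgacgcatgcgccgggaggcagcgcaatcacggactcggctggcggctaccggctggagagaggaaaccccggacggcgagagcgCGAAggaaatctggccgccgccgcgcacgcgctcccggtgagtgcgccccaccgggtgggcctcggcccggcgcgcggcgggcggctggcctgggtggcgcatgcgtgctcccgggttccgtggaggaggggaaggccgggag
Fasn (chr11:120824548-120824797, minus strand): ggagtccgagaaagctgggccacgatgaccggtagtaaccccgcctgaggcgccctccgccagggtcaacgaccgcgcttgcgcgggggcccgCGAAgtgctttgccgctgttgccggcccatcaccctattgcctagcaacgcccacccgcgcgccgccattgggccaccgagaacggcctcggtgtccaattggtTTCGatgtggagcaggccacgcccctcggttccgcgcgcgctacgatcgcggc
Cebpb (chr2:167688665-167688914, plus strand): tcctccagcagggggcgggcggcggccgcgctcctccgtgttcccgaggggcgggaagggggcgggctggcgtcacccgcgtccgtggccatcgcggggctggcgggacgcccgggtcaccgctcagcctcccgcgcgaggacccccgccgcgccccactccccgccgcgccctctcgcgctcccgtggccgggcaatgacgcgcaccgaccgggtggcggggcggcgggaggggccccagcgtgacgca
The stretches held between 21 CpG (Adgrl1) and 42 CpG (Zfp777). Foxp4, a forkhead repressor, had 3 TTCG places, Fasn, the fatty acid synthase gene, had 2, and Tnpo2, a nuclear import receptor, and Clock, a core circadian regulator, had 1 each. Adgrl1, an adhesion G protein-coupled receptor, Zfp777, a zinc finger gene, and Cebpb, a bZIP transcription factor, had 0. The motif was present in 38.8% of all 250-base upstream stretches of the promoter table, and in 50.7% of those whose promoter overlapped a wide region. A stretch without these letters says nothing about binding elsewhere in the region.

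The wide regions were among the stronger Deaf1 peaks but were not its strongest. Their width had a median of 1774 bp, with quartiles of 1606 and 2017 bp and a longest of 5218 bp. The highest fold in a region, the caller's ratio of summit signal to estimated background and the authors' own value, had a median of 20.7 in replicate 1 (quartiles 16.6 and 23.9, range 3.67 to 34.2). In replicate 2 it was 21.3 (quartiles 16.3 and 26.2, range 4.55 to 39.4). The median over all peaks was 6.07 and 8.34. Within their lists the regions stood at median fold percentiles of 94.4 and 86.6, and in both lists the highest fold of all, 35.8 and 42.5, belonged to a narrower peak. The pileup, the number of fragments over the summit, had a median of 72 in replicate 1 and 63 in replicate 2, against 19 and 23 over all peaks.

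Fold climbed with width up to the 1500 bp minimum and little beyond it. In replicate 1 the median was 4.90 in peaks under 250 bp, 14.0 from 500 to 999 bp, 19.2 from 1000 to 1499 bp, 20.4 from 1500 to 1999 bp and 21.5 in the 21 peaks of 3000 bp or more. In replicate 2 the corresponding medians were 5.31, 18.3, 22.8 and 24.0, and its single peak of 3000 bp or more had a fold of 28.4. Across the 981 regions, which share libraries, width and fold had a Spearman rho of 0.0636 in replicate 1 and 0.123 in replicate 2. Peaks on either side of the minimum were alike: the closest 3 inside it in replicate 1 (1500, 1500 and 1501 bp) had folds of 19.8, 13.3 and 23.6, and the closest 3 outside it (1499 bp each) had 22.5, 25.2 and 16.0. In replicate 2 the folds were 23.9, 20.9 and 23.9 inside (1501, 1504 and 1506 bp) and 20.5, 23.5 and 26.2 outside (1495, 1496 and 1497 bp).

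**Figure D1:**
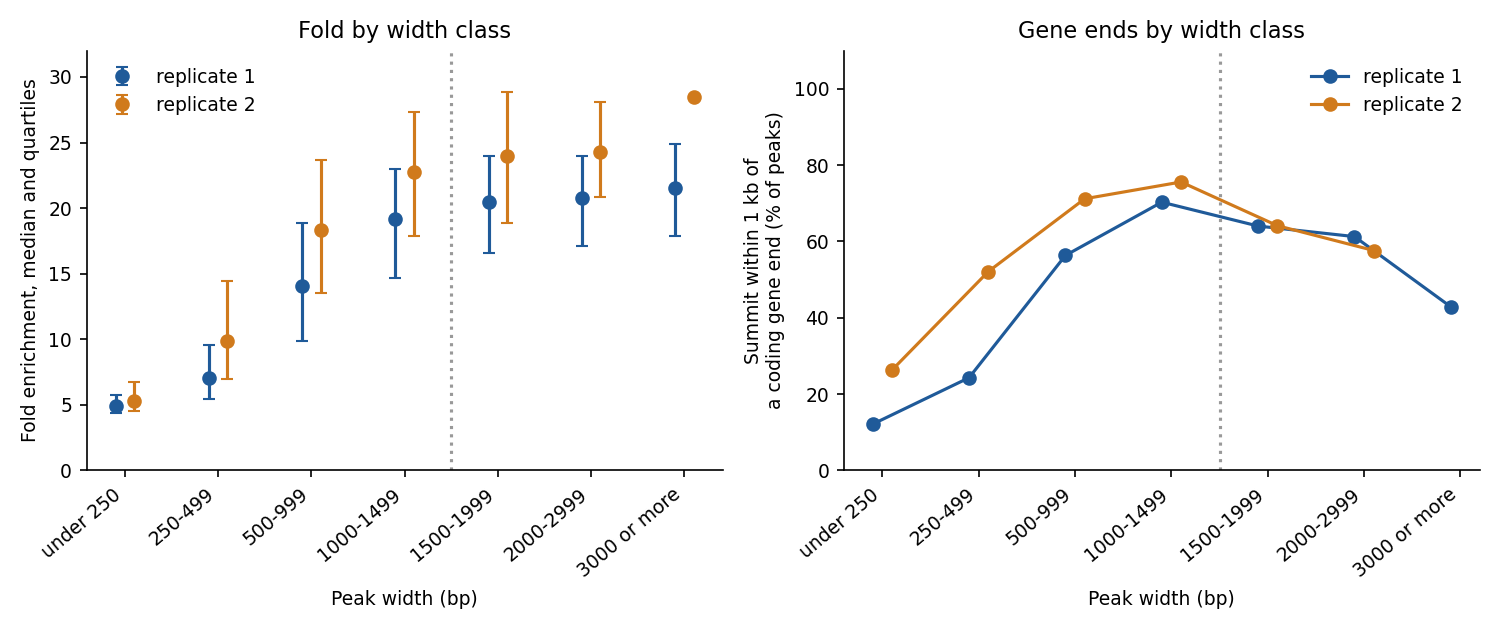
Left, median fold enrichment (points) with quartiles (bars) by peak width class in each replicate; right, percent of peaks whose summit lay within 1 kb of a protein-coding gene end, for classes of 20 or more peaks. The dotted line marks 1500 bp; fold in replicate 1 goes from 4.90 in the narrowest class to 20.4 just past the line and 21.5 in the widest, and the share at gene ends is highest at 1000 to 1499 bp (70.3% in replicate 1).

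Every wide region held peaks of both replicates. All 979 wide peaks of replicate 1 and all 297 of replicate 2 overlapped a peak of the other list by at least 1 bp, where the background was 35.0% of the whole replicate 1 list and 94.0% of the replicate 2 list. This was not particular to wide peaks: of those of 1000 to 1499 bp, 99.1% in replicate 1 and 100% in replicate 2 overlapped one too. A wide interval has more chance of touching a peak than a short one, and the part of length in these shares was not tested. The peak was wide in both replicates in 294 regions (30.0%), in replicate 1 alone in 685, and in replicate 2 alone in 2. Those 2 lay at the single-exon genes Pou3f3 and Sox3, which encode a POU-domain and an SRY-related factor of neural development. At Pou3f3 (chr1:42696636-42698146) replicate 1 had peaks of 468 and 1032 bp in place of the 1511 bp peak of replicate 2, with folds of 11.2 and 9.86. At Sox3 (chrX:60891990-60893541) the replicate 1 peaks were 453 and 906 bp, and the fold was 12.5 in both replicates. Both were thus below the median region in fold.

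Across the 981 regions the Spearman rho between the replicates was 0.642 for the highest fold. It was 0.308 for the widest peak, where the 1500 bp minimum, met through replicate 1 in 979 regions, cuts the range and the values cannot be set against those of fold. Replicate 1 had the higher fold in 396 regions and replicate 2 in 585. The lower of the 2 folds was 20 or more in 441 regions and under 10 in 53. The highest summits of both replicates lay within 100 bp of each other in 550 regions (56.1%) and within 500 bp in 82.6%, so in most regions, long as they were, both libraries put the highest point in nearly the same place. The summit sat in the outermost 25% of the peak's length on either side in 36.4% of the wide peaks of replicate 1 and 35.7% of those of replicate 2, against 16.7% and 15.3% of narrower peaks. Those narrower peaks had a median width of 254 bp in replicate 1 and 289 bp in replicate 2. The part of length in this difference was not tested.

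**Figure D2:**
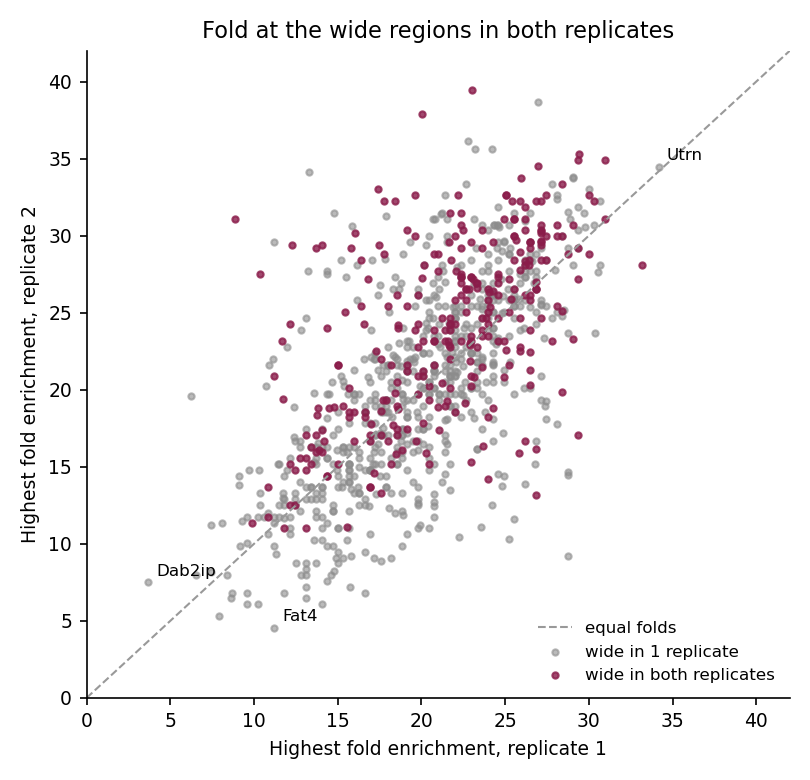
Highest fold enrichment of each of the 981 wide regions in replicate 1 (x) and replicate 2 (y), linear axes; dark points are the 294 regions wide in both replicates, grey points those wide in 1, and the dashed line marks equal folds. Most regions lie between 10 and 35 on both axes, with Utrn farthest to the right (34.2 and 34.5). The region inside Dab2ip is farthest to the left and that inside Fat4 is lowest.

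Replicate 2 often broke a wide region into several peaks. It had 1 peak in 500 regions (51.0%), 2 in 352, 3 in 100, 4 in 24, 5 in 4 and 6 in 1, so 481 regions (49.0%) were split. Replicate 1 had more than 1 peak in 4 regions, but 979 regions were chosen because it had a wide peak there, so its few splits follow from the rule and the replicates cannot be compared in this. The region with 6 replicate 2 peaks lay inside Dot1l, the histone H3 lysine methyltransferase of transcribed genes, where peaks of 154 to 300 bp stood in a single replicate 1 peak of 2182 bp. The 645 gaps between neighbouring replicate 2 peaks had a median length of 143 bp (quartiles 90 and 232, range 51 to 1251 bp), and replicate 2 peaks covered a median of 83.2% of a region. Regions with more pieces were longer and weaker. Median width was 1715 bp in regions with 1 replicate 2 peak, 1811 bp with 2 and 2090 bp in the 129 with 3 or more. Median fold went from 21.7 over 20.2 to 17.9 in replicate 1 and from 23.3 over 20.5 to 17.1 in replicate 2. Replicate 2 had fewer peaks and the lower background, and the part of its depth in the splitting was not tested.

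The 10 widest regions each lay at the end of a coding gene or inside one. Of all wide regions 78.2% lay at an end, against 53.0% of shared regions, and 20.2% lay inside, with no share of the shared regions given. The widest, 5218 bp at Mn1, a transcriptional co-regulator (chr5:111416453-111421670), had folds of 22.3 in replicate 1 and 23.1 in replicate 2, whose peaks there measured 2362, 2232 and 210 bp. The region of 4084 bp inside Plec, the gene of the cytolinker plectin (chr15:76178398-76182481), had folds of 17.9 and 19.3. Regions inside the growth factor gene Pdgfa (4072 bp) and the Hedgehog receptor gene Ptch1 (3293 bp) had 26.2 and 26.2, and 25.2 and 23.5.
Among the other 6, the region inside Gse1 (3656 bp) had folds of 21.5 and 30.0, and that inside Midn (3405 bp) had 16.1 and 28.1, so both were higher in replicate 2. Ubtf, which encodes an RNA polymerase I factor (3447 bp), had 27.5 and 28.4, and Ahdc1 (3428 bp) had 15.0 and 11.0. Irf2bpl (3394 bp) had 26.2 and 20.1, and Tril (3316 bp) 18.5 and 16.3. Each of the 10 was a single peak in replicate 1 and 2 to 5 peaks in replicate 2. In 7 of the 10 the region lay inside the gene, more than 1 kb from either end of its span, and 5 of those 7 (Pdgfa, Gse1, Ubtf, Midn and Ptch1) held a start site of the same gene.

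**Figure D3:**
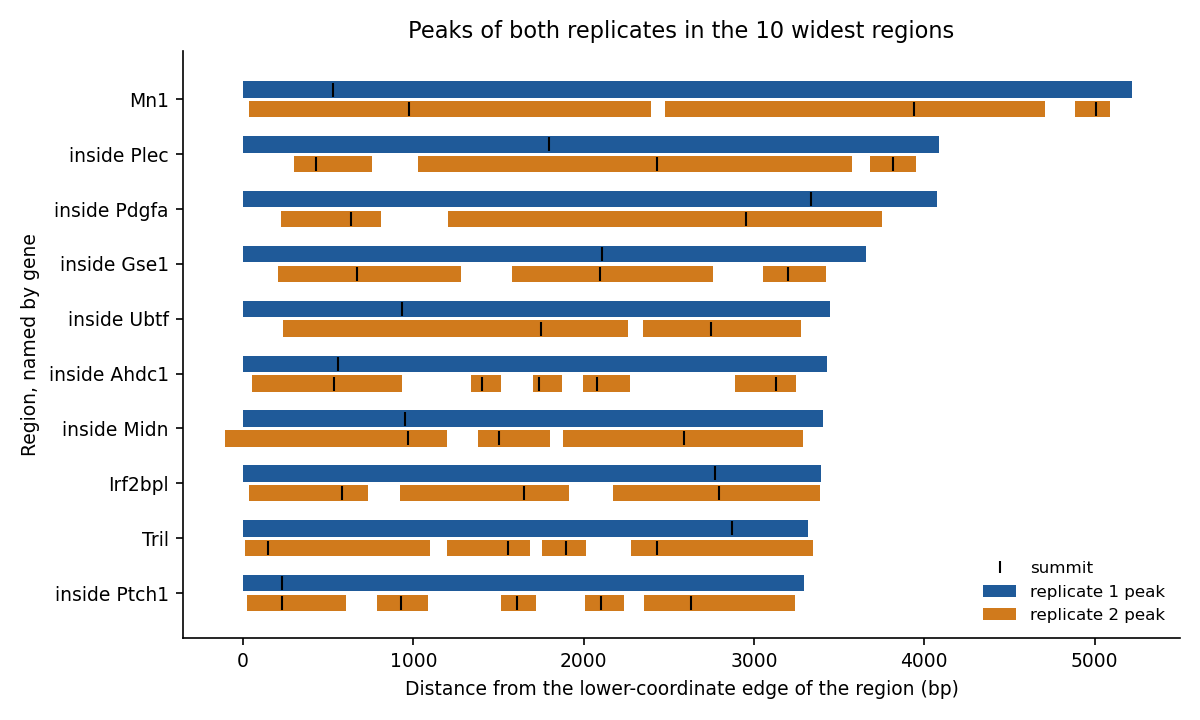
Peaks of replicate 1 (upper bar of each pair) and replicate 2 (lower bar) in the 10 widest regions, placed by distance in bp from the lower-coordinate edge of the region; ticks mark summits. Each region is 1 unbroken replicate 1 peak, and replicate 2 has 2 to 5 shorter peaks across the same stretch, 1 of which starts before the edge at Midn.

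The 10 regions ranked highest by the lower of both folds are described next; that choice makes both replicates high. Utrn, the gene of the dystrophin-related protein utrophin, led (chr10:12868102-12869704, 1603 bp) with folds of 34.2 and 34.5 and pileups of 106 and 91 fragments (95% Poisson intervals 86.8 to 128 and 73.3 to 112, for counting error only). In replicate 2 this region was 2 peaks of 314 and 825 bp. The next were Adgrl1 with 31.0 and 34.9, and Bcl7a, a subunit gene of SWI/SNF chromatin remodelling complexes, with 31.0 and 31.1. Foxp4 had 30.6 and 32.2, and the nuclear receptor coactivator gene Ncoa2 had 30.3 and 32.2. Tet3, which encodes an enzyme that oxidises 5-methylcytosine, and Zfp777 had 30.0 in replicate 1 with 33.0 and 32.6 in replicate 2. Tnpo2, Clock and Fasn had 30.3, 29.8 and 29.7 in replicate 1 and 30.7, 30.5 and 31.5 in replicate 2. The pileups of these 10 spanned 92 to 106 fragments in replicate 1 and 80 to 91 in replicate 2, and their 95% Poisson intervals overlapped, so counting error alone does not separate them. Set against the sequences printed above, the replicate 1 summit lay 134 bp upstream of the start at Tnpo2 and 132 bp upstream at Clock, inside the printed stretch, and 956 bp upstream at Zfp777, outside it. At Adgrl1, Foxp4 and Fasn it lay 106, 37 and 83 bp downstream of the start.

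The weakest wide regions were low in different ways. Inside Dab2ip, a Ras GTPase-activating protein gene (chr2:35660932-35662473), the folds were 3.67 and 7.53, but the replicate 1 pileup was 81 fragments over a background of 21.4, the highest background of any wide region in that replicate. Its replicate 2 background was 3.25. Inside Fat4, an atypical cadherin gene, the folds were 11.2 and 4.55 with pileups of 34 and 11 (95% Poisson interval of the latter 5.49 to 19.7). Near Ggnbp1, 1516 bp from its end, the folds were 7.90 and 5.31. At Irgc1 they were 14.0 and 6.07, and at the adjoining ends of Fam166b and Rusc2 they were 9.58 and 6.07, where the replicate 2 peak covered 10.5% of the region. At these last 4 the background was at most 2.67 fragments in replicate 1 and 1.64 in replicate 2, so there the low fold went with few fragments in replicate 2. A background above the lowest was found at 34.9% of wide regions in replicate 1 and 28.7% in replicate 2, against 21.4% and 24.9% of all peaks. Narrower peaks of 1000 to 1499 bp had it as often or more often, in 35.3% and 34.9%.

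Most wide regions lay at gene ends and held a transcription start. A protein-coding gene end lay within 1 kb of 767 regions (78.2%), against 53.0% of all shared regions. A longer region reaches more ends, and when its highest summit was used in place of the region the share was 62.6%, against 49.3% of all shared regions and 48.7% of the narrower ones. A start site of the promoter table lay in 619 regions (63.1%, against 36.0% of shared regions). Starts of 2 or more genes lay in 124 (12.6%). No share of the shared regions is given for this, and a longer region can hold more starts. Of the regions not at a coding gene end, 198 (20.2% of all wide regions) lay inside a coding gene, 11 at the end of a noncoding gene alone and 5 elsewhere. For these classes too no share of the shared regions is given. Of the 198 inside genes 93 held a start site, so not all were away from promoters. The 105 without one had lower median folds, 16.9 and 15.2, than the 767 at gene ends, with 20.8 and 21.8. The distance of the 198 from the nearest coding gene end had a median of 4021 bp.

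The share at gene ends did not keep going up with width. In replicate 1 the summit lay within 1 kb of a coding gene end in 12.1% of peaks under 250 bp, 56.3% at 500 to 999 bp, 70.3% at 1000 to 1499 bp, 64.0% at 1500 to 1999 bp, 61.3% at 2000 to 2999 bp and 42.9% of the 21 peaks of 3000 bp or more. The share that held a start went from 1.87% in the narrowest class to 62.2% at 1000 to 1499 bp, 62.4% at 1500 to 1999 bp, 65.1% at 2000 to 2999 bp and 66.7% in the widest. In replicate 2 it was 65.2% at 1000 to 1499 bp, 61.6% at 1500 to 1999 bp and 61.0% at 2000 to 2999 bp. The replicate 1 summit lay within 1 kb of a start in 65.6%, 62.2%, 57.9% and 47.6% of peaks in the classes from 1000 bp up. The wider classes thus held starts about as often, with the summit less often within 1 kb of a gene end or a start.

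Around the start site the wide regions reached farther into the gene than upstream of it. In the 443 regions with exactly 1 start, a median of 607 bp lay upstream and 1218 bp downstream, and the downstream side was the longer in 340 (76.7%). The same lean was present in narrower replicate 1 peaks with 1 start, where the downstream side was longer in 83.3% at 500 to 999 bp and 80.2% at 1000 to 1499 bp. The highest summit stood a median of 103 bp downstream of the start in replicate 1 and 133 bp in replicate 2. Its position varied more than in narrower peaks: it was within 250 bp of the start in 44.5% of the wide regions in replicate 1 and 45.4% in replicate 2, against 98.4%, 82.0% and 66.6% of replicate 1 peaks of 250 to 499, 500 to 999 and 1000 to 1499 bp. A short peak that holds a start cannot have its summit far from it. Replicate 2 peaks covered the start in 89.2% of these regions, and in 34 of the 223 split ones (15.2%) the start lay outside all replicate 2 peaks.

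**Figure D4:**
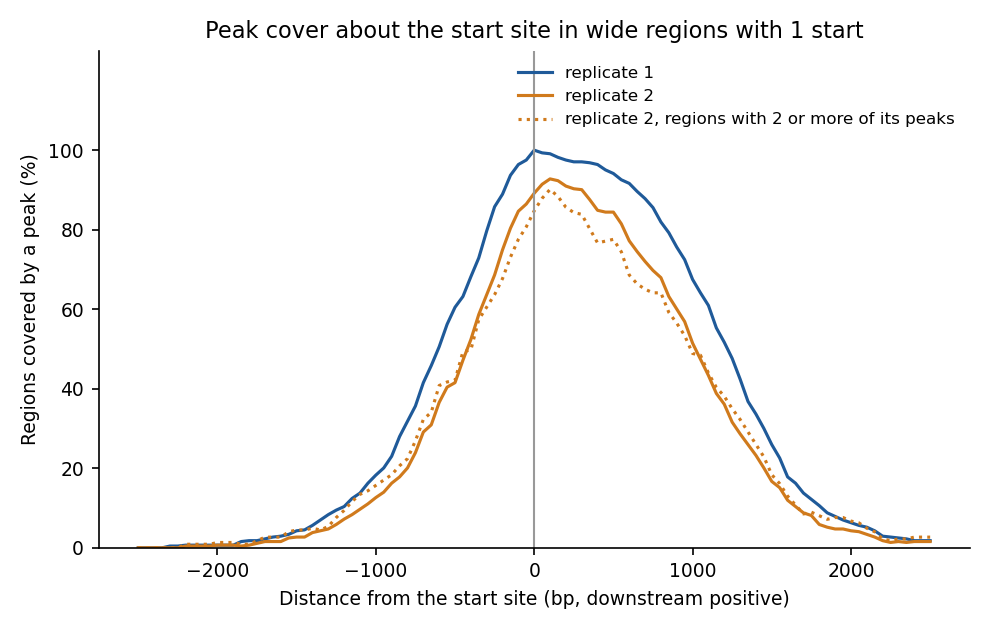
Percent of the 443 wide regions with 1 start site in which a position is covered by a peak, by distance from the start in bp (downstream positive), for replicate 1, replicate 2 and the 223 regions that replicate 2 split. At 1000 bp downstream 67.5% were covered in replicate 1 and 51.5% in replicate 2, and at 1000 bp upstream 18.3% and 12.6%.

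The promoters in wide regions were the richest in CpG but not in the Deaf1 half-site. Over the 300 bases from 250 upstream to 50 downstream of a start, the 888 promoters that overlapped a wide region (2.72% of 32619) held a median of 31 CpG (quartiles 24 and 40). The 10647 promoters at narrower shared regions held 24, all promoters 7 and those without a peak 3. Median GC content was 70.3%, 64.3%, 53.0% and 47.3% in the same order. TTCG on either strand was present in 505 promoters of wide regions (56.9%), in 62.5% at narrower shared regions, in 44.9% of all promoters and in 33.8% of those without a peak. At 2 or more places it was present in 23.6%, 28.4%, 16.8% and 9.49%. Per 100 CpG there were 2.98 TTCG places in promoters of wide regions, 4.23 at narrower shared regions, 5.57 in all promoters and 9.95 where no peak lay. The motif holds T as well as a CpG, and GC content was highest in the promoters of wide regions. The part of GC content in these TTCG numbers was not tested.

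The share of promoters that overlapped a wide region rose with CpG number, as did the share that overlapped any shared region. Promoters with 9 CpG or fewer overlapped a wide region in 0.164% of cases, those with 10 to 19 in 1.72%, those with 20 to 29 in 5.63% and those with 30 or more in 12.7%. A shared region of some width was overlapped by 3.17%, 53.9%, 87.0% and 96.8% of promoters in the same order. The part of this in the rise of wide overlap was not tested. In the last class nearly all promoters thus had Deaf1 peaks in both replicates, and most of these were not wide. Within that class TTCG was present in 54.7% of the 488 promoters of wide regions and in 64.1% of all. At 20 to 29 CpG the shares were 61.3% of 274 and 67.2%, and at 10 to 19 CpG 60.4% of 96 and 62.3%. With 9 CpG or fewer the order was the other way, 40% of 30 and 29.7%. The letters are a short motif that random sequence also holds, and a match is not a bound site.

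Of the 15 gene lists described, immediate early genes and chromatin regulators had the largest shares with a wide region. Of 21631 protein-coding genes 3.99% had an end within 1 kb of a wide region, and of the 11688 with a shared region at an end 7.38% did. The lists were written with earlier results of these data known, so their shares describe these genes and support nothing further. Immediate early, AP-1 and Myc genes, which respond within minutes to growth factors and stress, had a wide region at 15 of 40 (37.5%), and Myc itself held one inside the gene. With replicate 1 left out the count was 7. The 15 had median folds of 21.7 and 21.8 (9.86 to 34.9 over both replicates). Cebpb was highest with 29.4 and 34.9 over 1898 bp. Cebpd, its bZIP relative, had 27.1 and 25.8, and Ier5l had 24.6 and 26.2. Zfp36l2, an mRNA decay factor of AU-rich elements, had 23.9 and 25.8, and the Krüppel-like factor genes Klf9 and Klf10 had 22.0 and 24.7, and 25.3 and 21.8.

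Chromatin regulators had a wide region at the end of 14 of 41 genes (34.1%) and inside a further 6. Their folds had medians of 19.9 and 26.8 at the 14, and with replicate 1 left out the count was 5. After Tet3, already given, Kmt2d, a histone H3 lysine methyltransferase gene, had 29.4 and 29.2 inside the gene. Ezh2, the Polycomb methyltransferase, had 27.1 and 29.2, and Chd7, a chromatin remodeller, had 26.2 and 30.3 over 2382 bp. The histone demethylase genes Kdm2a and Kdm5b had 23.6 and 29.2, and 22.7 and 26.5.
Developmental and homeobox factors had a wide region at 11 of 53 (20.8%) and inside 2 others, and at 3 with replicate 1 left out. The limb and heart factor gene Tbx2 had 23.9 and 23.5, Irx5 25.5 and 25.9 over 2467 bp, and Gli3, a Hedgehog effector, 24.3 and 29.6. Hoxa10, with the region inside the gene, had 22.0 and 25.0, Sox12 had 19.8 and 24.3, and Pitx3 had 19.2 and 18.2.
Splicing and RNA-binding genes had 7 of 39 (17.9%), and 2 with replicate 1 left out. Hnrnpk led with 26.2 and 28.1, followed by Srsf1 with 27.5 and 25.4 and Srsf2 with 24.6 and 27.5. Hnrnpd, Hnrnpu and Ddx17 had 20.3, 18.5 and 14.9 in replicate 1 and 23.9, 26.2 and 14.8 in replicate 2.

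Genes of autophagy, mTOR signalling, lysosome and FOXO factors had a wide region at 7 of 55 (12.7%). Rictor, a subunit of the second mTOR complex, had 29.0 and 33.8 over 2037 bp, and the insulin receptor substrate genes Irs1 and Irs2 had 27.5 and 28.4, and 27.1 and 28.4, with widths of 2181 and 3102 bp. The wide region at Foxo1, a transcription factor restrained by insulin signalling, was 2540 bp with 25.9 and 22.8. Akt1, the kinase between them, had 20.4 and 24.7, and Gabarap, an autophagosome protein, had 19.1 and 21.9. Foxo3 was the remaining one. With replicate 1 left out, or a wide peak required in both replicates, 2 of the 55 had a wide region.

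In the muscle and cytoskeleton lists below, 2 to 4 genes each had a wide region, or 5.13% to 10.3%, against 3.99% of coding genes. Of 10 markers of C2C12 differentiation, among them Myod1, Myog and Myh3, 0 had a wide region at an end, and since a peak at a gene is not its expression these data do not check the labelled cell type. In the myogenic list 3 of 29 genes did (10.3%). Six4, which encodes a homeobox factor of muscle precursors, had 17.7 and 17.1, and the myostatin receptor gene Acvr2b had 20.8 and 26.2. The wide region of Mef2a lay inside the gene with 21.1 and 22.8. Of the sarcomere and excitation-contraction list 2 of 39 had one (5.13%), Utrn and, with 18.9 and 11.9, Tpm2. Cytoskeleton and matrix genes had 4 of 41 (9.76%), Cnn3, Myh9, Actn1 and Ahnak, beside the region inside Plec. With a wide peak required in both replicates the counts were 0 in the myogenic list, 0 in the sarcomere list and 1 in the cytoskeleton list.

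The other lists had a wide region at 0 to 3 genes. Heat shock and chaperone genes had 0 of 30, although 26 had a shared region at an end. A promoter with 30 CpG or more belonged to 11 of the 30. Among all coding genes with that many, 11.9% had a wide region at an end. Translation genes had 3 of 31 (9.68%): Eef1d with 17.8 and 32.2 over 2759 bp, Eif4g2 with 23.0 and 22.4, and Eif5 with 23.2 and 35.7; with a wide peak required in both replicates 1 of the 31 had one. Histone genes had 0 of 22, with shared regions at 9. The list of genes linked to Deaf1 had 1 of 22 (4.55%), Rai1, with 26.2 and 31.1 over 2289 bp. Noncoding RNA genes had 1 of 27 (3.70%), Dleu2, with 20.1 and 27.3, and markers of other cell types had 1 of 43 (2.33%), the germ cell gene Dazl, with 16.3 and 15.0, plus a region inside the neuronal gene Rbfox3. Repeated loci had 0 of 12.

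Median promoter CpG number was above that of all coding genes in the 4 lists with the largest shares. The same held for the heat shock, Deaf1-linked, translation, autophagy, cytoskeleton and myogenic lists. The median over genes of the highest CpG number in their promoters was 33 in the chromatin list, 28 in the splicing list, 25.5 in the immediate early list and 20.5 in the developmental list, against 15 in all coding genes with a promoter in the table. It was 28 in the heat shock list, 25 in the list linked to Deaf1 and 24 in the translation list. In the autophagy, cytoskeleton and myogenic lists it was 22, 18.5 and 17. Among genes with 30 CpG or more, a wide region lay at 356 of 2984 coding genes (11.9%). In the lists it lay at 3 of 12 immediate early genes, 6 of 20 chromatin regulators, 5 of 17 splicing genes and 5 of 13 autophagy and mTOR genes. It lay at 4 of 7 developmental genes, 0 of 11 heat shock genes, 0 of 8 translation genes and 0 of 8 genes linked to Deaf1. The part of CpG number in the list shares was not tested.

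**Figure D5:**
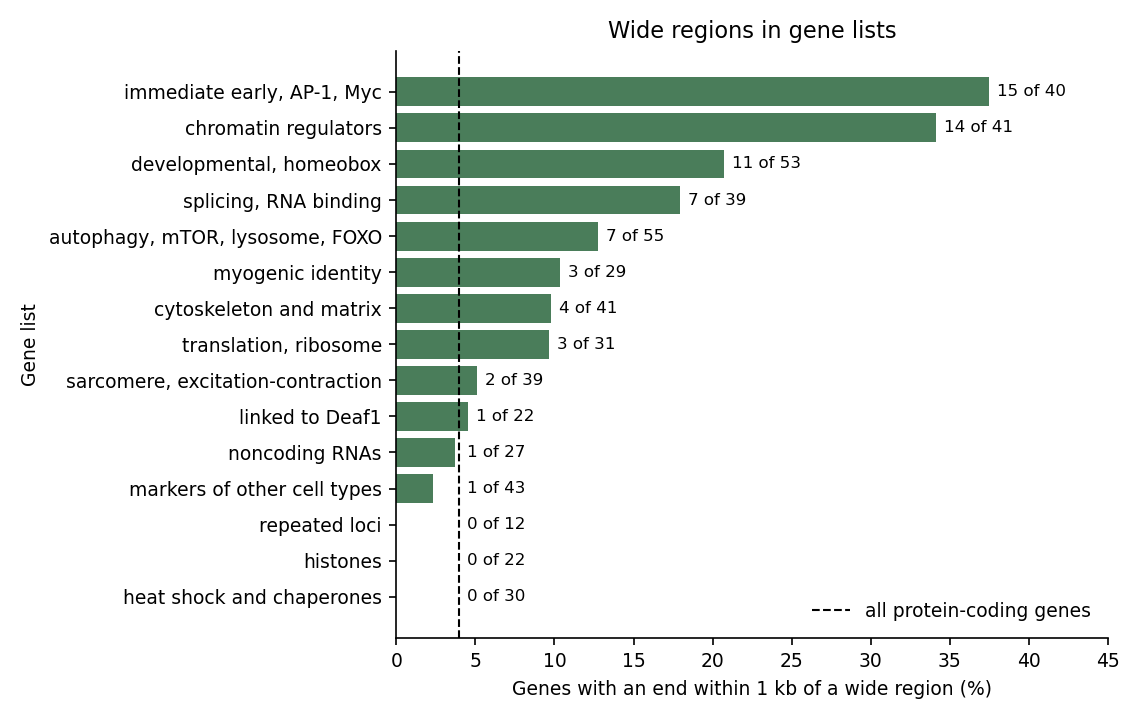
Percent of the genes of each list with an end within 1 kb of a wide region; the dashed line is the 3.99% of all protein-coding genes, and the label gives the count over the genes matched. Immediate early genes (15 of 40) and chromatin regulators (14 of 41) are farthest to the right, and heat shock genes, histones and repeated loci are at 0.

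Some wide regions stood in runs. Joined within 10 kb of each other, 44 regions fell into 20 runs, 3 of them with 3 or more regions. The longest series was 4 regions inside Plec (chr15:76176077-76186900), which covered 86.9% of 10824 bp, with folds of 13.6 to 18.2 in replicate 1 and 9.10 to 19.3 in replicate 2. The next were 3 regions at Mapk15 and Fam83h on the same chromosome, with 16.6 to 21.1 and 9.48 to 19.3, and 3 at Zbtb12 and the histone methyltransferase gene Ehmt2 on chromosome 17, with 14.7 to 23.6 and 9.86 to 26.5. Regions in pairs included those inside Pdgfa, which together filled 97.9% of 6018 bp, and those at H2-DMa and Brd2, 297 bp apart.

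Outside coding genes and their 1 kb windows lay 16 regions, several of them beside miRNA genes. One of 2095 bp lay 1236 bp from Mir17, the first member of a miRNA cluster linked to cell growth, with folds of 26.8 and 27.0. Another of 1897 bp lay 6576 bp from Mir23a, with 28.5 and 25.2. The region that holds the hairpins of Mir132 and Mir212, a neuronal and immune miRNA pair, had 23.6 and 21.6. Those at Mir124a-3 and Mir9-1, neuronal miRNAs, were weaker, with 15.6 and 15.2, and 13.7 and 8.72. Over all wide regions 10 (1.02%) held a miRNA hairpin, against 0.385% of shared regions and 0.356% of narrower shared ones. The wide regions are longer, and per Mb of covered sequence they held 8.11 hairpins and the narrower shared regions 6.41. The region nearest D130051D11Rik stood 29325 bp from that gene, the farthest of the 16 from any gene, with 25.6 and 29.7.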

How the data were processed

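Deaf1 ChIP-seq peak lists of 2 replicates in C2C12 cells were used; the 2 input samples entered no comparison. The submitters' processing notes name BWA, MACS2 and build mm10 and state no versions, no parameters and no control for the peak calls. The deposited lists were called per replicate. Fold enrichment (a ratio of summit signal to background), −log10 of p and q (a p-value and its adjusted form) and the score of each peak are the authors' deposited values. Each peak's pileup and background were solved with a Poisson tail from the deposited fold, which has 1 added to both terms, and from p, and gave back p within 4.07e-05 (−log10) in replicate 1 and 3.87e-05 in replicate 2. A background counted as raised when over 0.003 above the lowest.

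Wide peaks (1500 bp or more) were merged where they overlapped, and a region takes the highest fold of its peaks in each replicate. Positions are 1-based. Gene spans, start sites and sequences are from RefSeq tables of GRCm38.p6, the assembly of mm10. The promoter table covers 79.9% of coding genes, so regions can hold starts that are not counted, and gene spans carry no strand, so an end is either end. Regions named are the 10 widest, the 10 highest and 5 lowest by the lower of both folds, and list genes at a wide region (the 6 highest by that value in lists with more); the 2 regions wide in replicate 2 alone, the region with 6 replicate 2 peaks and the runs, pairs and regions outside coding genes were chosen after their values were seen. The 15 gene lists held 540 symbols, 524 matched, 6 in more than 1 list. The values of 1 list gene at a wide region are not reported here. The members and lists were chosen with earlier results of these data known. Width, merging, window, overlap, motif and replicate choices were varied. The steps were tested on simulated data. Python 3.11.15, NumPy 2.4.6, pandas 2.3.3, SciPy 1.17.1 and matplotlib 3.10.9 were used.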

Additional observations from a re-analysis of the deposited data

How the results depend on the processing

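Of 82 alternative values over 17 results, 37 stayed within the 95% binomial interval of a share, 1.5 times a count or 1 SD over regions of a median, and 45 moved. Some of the 37 could hardly move. No wide peak had −log10 q under 17.1 in replicate 1 or 18.9 in replicate 2, so a minimum of 5 removed none. Leaving out replicate 2 changed little because 979 of the 981 regions were wide in replicate 1. The binomial intervals take regions of the same libraries as independent. The number of wide regions was 2220 with a minimum of 1200 bp and 258 with 2000 bp, against 981, and ranged from 297 to 979 when 1 replicate was left out. Where a replicate had to cover 50% of a region, 96.0% held peaks of both replicates in place of 100%. The share wide in both replicates, 30.0%, was 36.4% at 1200 bp, 22.1% at 2000 bp and 37.7% when each list gave its widest 1.49% of peaks (a minimum of 1410 bp in replicate 2). The share at a coding gene end, 78.2%, was 63.4%, 73.5%, 83.0% and 89.8% with windows of 0, 500, 2000 and 5000 bp, 62.6% by the highest summit and 68.7% by start sites of the promoter table. The median number of summits per region was 2, and 3 at 2000 bp. Promoters with TTCG at 2 or more places made up 23.6%, against 56.9% at 1 or more.

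The alternatives for gene lists were chosen after seeing the data. With a wide peak required in both replicates, 7 immediate early, 5 chromatin, 3 developmental and 2 splicing genes had a wide region, against 15, 14, 11 and 7. At 2000 bp the counts were 3, 5, 3 and 1, and at 1200 bp there were 22 developmental genes. Leaving out 1 replicate gave 7 to 15, 5 to 14, 3 to 11 and 2 to 7. In the autophagy, myogenic, cytoskeleton, sarcomere and translation lists, with 7, 3, 4, 2 and 3 genes, the counts were 2, 0, 1, 0 and 1 with a wide peak in both replicates, and leaving out 1 replicate gave 2 to 7, 0 to 3, 1 to 4, 0 to 2 and 1 to 3. At 1200 bp the autophagy, myogenic, cytoskeleton and translation lists had 13, 8, 11 and 8, and at 2000 bp the cytoskeleton, sarcomere and translation lists had 0, 0 and 1. All coding genes moved too, with 1.23% wide in both replicates, 1.05% at 2000 bp and 8.97% at 1200 bp against 3.99%. No paired analysis was possible because the peak lists form 1 group of 2 samples and no test was made.

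Peak width rests on the caller's threshold and on depth, which the lists do not give, so widths of the replicates are not on 1 scale. Pileup intervals cover counting error only. With no signal tracks and no genome sequence used here, the shape of the signal and the motifs outside promoters were not analysed.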

Other observations

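Wide regions per gene were uneven over the chromosomes. Chromosome 15 held 66 regions, 85.1 for each 1000 coding genes, where the other chromosomes held 24.6 (chromosome 7) to 61.9 (chromosome 12). As a share of its shared regions this was 4.66%, inside the range of the others, from 3.18% on chromosome 7 to 5.96% on chromosome 13, so chromosome 15 had more shared regions per gene of any width. Its wide regions had a raised background in 59.1% of cases in replicate 1 and 51.5% in replicate 2, the highest of all chromosomes, and their median folds were 20.8 and 21.3, near those of all wide regions. On the X chromosome 4.0% had a raised background in each replicate, and the median folds were 17.9 and 19.3.

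The hairpins of 15 miRNAs lay within 10 of the wide regions, 7 of them at a coding gene end, 1 inside a coding gene and 2 at noncoding gene ends. The region at Cdk9, the kinase that releases paused RNA polymerase II, held Mir2861 and Mir3960, with folds of 24.1 and 25.4. The region at Dio3, an imprinted thyroid hormone deiodinase gene, held Mir1247, with 12.1 and 12.5 and a single peak in each replicate. The region at Cercam and Urm1 held Mir219a-2 and Mir219b, with 20.1 and 20.9. The hairpins were counted by position only.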
